A study of Mus musculus with 16 samples.

Results

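Endothelial cells of the lung, which form the inner lining of its vessels, were compared between mice with a tumour and mice without a tumour mass. The tumour-bearing class held 8 libraries: 4 from mice with a primary tumour (d15) and 4 from mice with metastases (d36). The tumour-free class held the other 8 libraries: 4 from wild-type mice without a tumour (d0) and 4 from mice whose tumour had been resected (d22). Tumour-free here means without a tumour mass. Whether the d22 mice still held tumour cells was not tested. These are all 16 libraries of the series, divided by the state that the labels give. The question was which genes follow tumour burden on, off and on again, with both tumour states at equal weight.

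The mice were female C57BL/6N animals, and per the labels' protocols each tumour was started by placing 1000000 Lewis lung carcinoma cells under the skin. Lewis lung carcinoma is a tumour line of mouse lung that seeds lung metastases. The labels do not say whether the d0 mice received any injection, nor give the ages of the mice. The classes differ in more than burden: a d22 mouse had carried a tumour and had been operated on, and the labels do not describe the surgery or name what the d36 mice had been through before. For d36 replicate 1 both the title and the column header name day 29. Its time point field reads d36 and was followed. Values by library are given in the order of the replicate numbers, which are 1, 2, 3, 4 (d0), 3, 4, 5, 6 (d15), 1, 4, 5, 6 (d22) and 1, 7, 8, 9 (d36). The series design calls the libraries of a time point independent biological replicates.

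Endothelial cells of the lung meet whatever a distant tumour releases into the blood. Cytokines such as interleukin 6 act through the transcription factor STAT3 and raise acute-phase genes, inflammatory signals act through NF-kB and raise adhesion molecules, and low oxygen raises genes of glycolysis and mitophagy. Glucocorticoids and the circadian clock also reach every endothelial bed, and clock genes change with the hour of the day.

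The table gives expression as RPKM (reads per kilobase of transcript, scaled to the size of the library) and no read totals. From the steps between low values, the deepest library held an estimated 1.63 times the reads of the shallowest. The values of 171 of 4043 low entries lay on whole multiples (within 0.1), too few to recover read counts, so the absolute depth is not known here. Pan-endothelial markers were abundant in all libraries: the sum of the 18 markers was 7920 to 9040 RPKM in d0, 8250 to 9640 in d15, 8980 to 10800 in d22 and 7800 to 12400 in d36. No state had a pan-endothelial marker at 0 in all 4 of its libraries. The d36 libraries were the least alike. Correlations across genes between libraries of a state were as low as 0.92 at d36, against 0.98 at d0, 0.979 at d15 and 0.978 at d22, and on the first principal component (39.9% of the variance) d36 replicates 1, 7 and 8 lay at 46.6, 57.5 and 42.9 while d36 replicate 9 lay at -4.8, among the other states. Counts over all entries and over gene lists are therefore also given without replicate 9, or without replicates 1 and 9, where they move by more than 1.5 times.

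Across the 14303 entries that reached 1 RPKM in at least 4 libraries, 745 were higher (5.21% of those tested) and 366 were lower (2.56%) in the tumour-bearing class. The test was limma on log2(RPKM + 1) with each state kept as its own mean, two-sided, at an adjusted p of 0.05 after Benjamini-Hochberg adjustment. Differences below are on this log2(RPKM + 1) scale, which understates the change of genes near or under 1 RPKM. Of the rises, 105 were at least 2-fold, and of the falls, 2 were. The median difference over all tested entries was 0.01. Leaving out d36 replicate 9 gave 1787 higher and 1269 lower, and leaving out d36 replicates 1 and 9 together gave 1674 and 1357. The rises fell to 384, 469, 422, 445, 490 and 455 without d0 replicate 3, d0 replicate 4, d22 replicate 5, d22 replicate 6, d36 replicate 7 and d36 replicate 8. The falls dropped to between 153 and 240 without any 1 of d0 replicates 2, 3 and 4, d15 replicates 4 and 6, d22 replicates 1, 5 and 6, and d36 replicates 7 and 8. Higher entries were 67.1% of the calls, and 63.4% under median-of-ratios scaling. They were 80% over the entries that have a length and a GC content, and 50.3% (360 higher and 356 lower) once the trend with length and GC was removed over these. A model that held 2 classes and no separate states, so that differences between d0 and d22 and between d15 and d36 entered the spread, called 57 higher and 53 lower.

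A mean over both tumour states can be carried by d36 alone, and for the rises it often was. Of the 745 genes that were higher, 709 were above the tumour-free mean at d36 at an unadjusted p of 0.05 (22% of all tested entries were), and 302 were at d15 (5.19%). Both tumour states lay above both tumour-free states in 512 of the 745, where 13.8% of all tested entries had this order. Among the 366 genes that were lower the states were more even: 351 were below the tumour-free mean at d36 (11.5% of all) and 283 at d15 (7.53%), and 343 had both tumour states below both tumour-free states, an order found in 16.5% of all tested entries. The sign of these orders is partly fixed by the call itself, so the counts are descriptions. Entries known only by an AK or ENSMUST transcript identifier made up 16.8% of the rises and 51.9% of the falls, against 24.3% of all tested entries.

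The strict form of the pattern asked for 4 differences of 1 sign, each tumour state against each tumour-free state, with the largest of the 4 p-values as the p of the pattern. No entry passed this in limma after adjustment (0 of 14303, 0%): the smallest p was 0.000334 and its adjusted value was 1. Without d36 replicates 1 and 9 it passed for 1 entry, the transcript AK030791 (class difference -1.11, adjusted p = 0.0066 in limma), named here after its values were seen. At an unadjusted p of 0.05, 63 entries were higher (0.44%) and 84 were lower (0.587%) in this order. Of these, 62 rises (0.433%) and 79 falls (0.552%) had also passed the test of burden after adjustment, and they are called pattern genes below. Their order of states is therefore supported by unadjusted p-values, and their difference between classes by adjusted ones. Symbols were given for 42 of the 62 and 32 of the 79. Without d36 replicate 9 the numbers were 129 and 175, and without d0 replicate 3, d15 replicate 4 and d22 replicate 1 the falls numbered 45, 46 and 50. Of the 141 pattern genes, 41 kept this status whichever library was left out. Counts of genes over the whole table are counts of entries. Some entries had near-identical values, such as AK077860, AK083988 and AK090257, so the number of separate genes may be lower.

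Complete separation was rarer. All 8 tumour-bearing libraries lay above all 8 tumour-free libraries in 22 entries (0.154%), and below them in 18 (0.126%). All 40 of them had passed the test of burden. Those with a symbol that were higher included the kinase gene Pim3, Serinc3, Pmaip1, Lgmn and Adm, and those that were lower included Fam124b, 8030494B02Rik, Spon2 and Rtp3. The other separated genes named here were chosen after their values were seen. Among them, H3f3b, which encodes the histone variant H3.3, averaged 158 ± 11.8 RPKM at d0, 240 ± 26.9 at d15, 188 ± 17.9 at d22 and 312 ± 52 at d36 (SD, n = 4 each). Als2cl averaged 52.6 ± 8.38, 35.7 ± 3.88, 46.1 ± 4.93 and 32.2 ± 5.92 RPKM in the same order. Serpina3n, an acute-phase protease inhibitor, and Igfbp6, which binds insulin-like growth factors, were also separated, but at levels of 0.962 ± 0.834 and 1.05 ± 0.162 RPKM at d15 against 4.78 ± 6.36 and 10.9 ± 7.39 at d36.

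**Figure D1:**
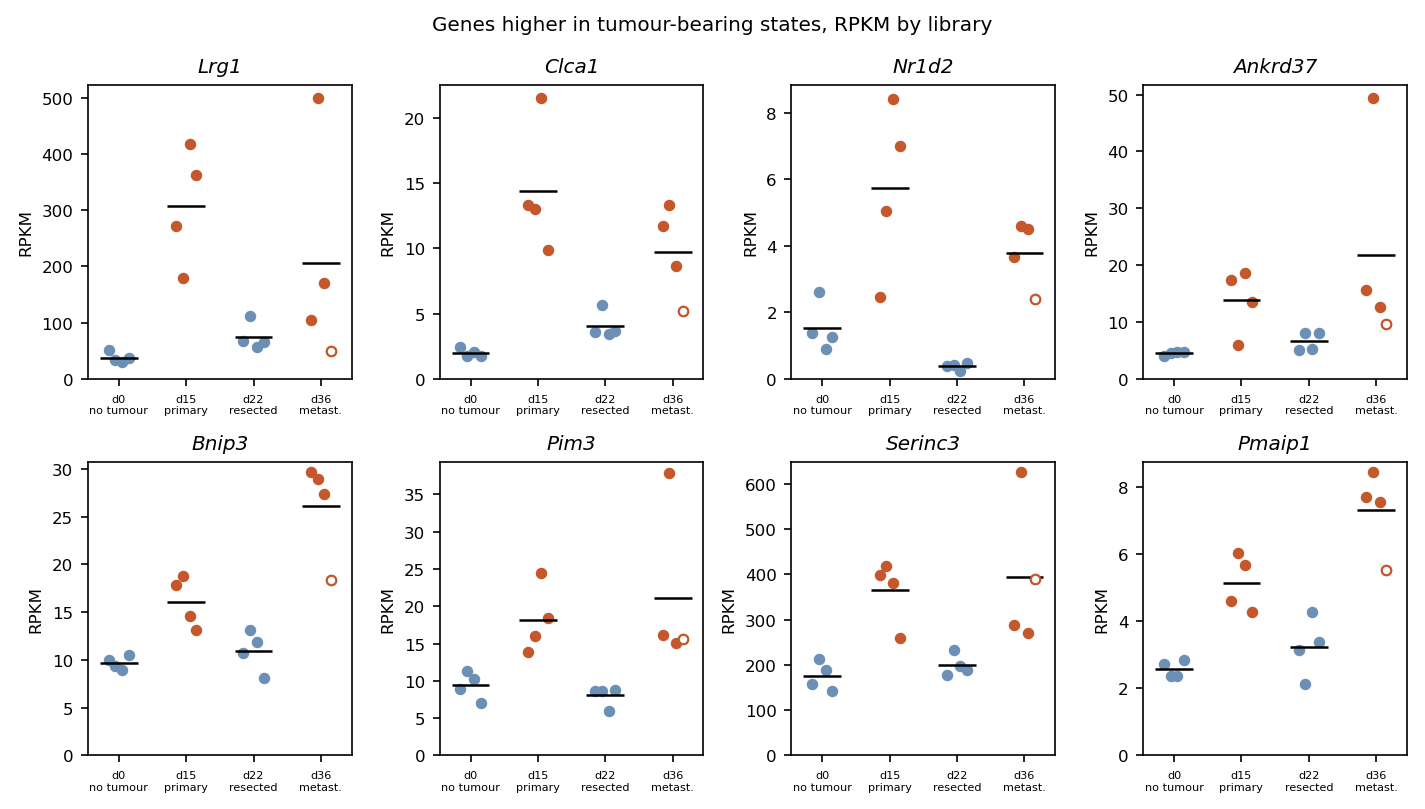
RPKM of 8 genes that were higher in the tumour-bearing class, for each of the 16 libraries by state (blue, tumour-free; orange, tumour-bearing; line, mean of 4 libraries; each vertical axis starts at 0). The open circle is d36 replicate 9, which lies below the other 3 d36 libraries for Lrg1 (48.8 RPKM), Clca1 (5.21), Nr1d2 (2.4), Ankrd37 (9.69), Bnip3 (18.4) and Pmaip1 (5.54), and inside their range for Pim3 and Serinc3.

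Lrg1, which encodes a secreted leucine-rich glycoprotein known to act on endothelial TGF-beta signalling, was among the larger rises of d15. It lies on chromosome 17 at 56119678 to 56122001, minus strand (GENCODE annotation of GRCm38, the assembly that mm10 names). It measured 52, 33.2, 29.4, 37 RPKM (d0), 271, 179, 418, 363 (d15), 67.2, 112, 57.6, 64.8 (d22) and 104, 499, 170, 48.8 (d36). The d15 libraries all lay above every tumour-free library, whereas d36 ran from below the highest d0 library to the highest value of all. The difference between the classes was 1.96 ± 0.34 (SE; adjusted p = 0.00424, limma), with 2.95 at the first onset (d15 minus d0) and 0.98 at the second (d36 minus d22, adjusted p = 0.19). Its pattern p of 0.0568 missed 0.05, and the difference between the onsets had an adjusted p of 0.0977. Left out in turn, no library took away its call between the classes (1.67 to 2.22).

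Clca1, listed under a symbol of the calcium-activated chloride channel regulator family that comes from an older annotation, had the smallest pattern p among the named genes. It measured 2.45, 1.77, 2.05, 1.75 RPKM (d0), 13.3, 13, 21.5, 9.83 (d15), 3.58, 5.62, 3.45, 3.7 (d22) and 11.7, 13.3, 8.64, 5.21 (d36). All d15 values were above every tumour-free value, and at d36 replicate 9 alone fell below the highest d22 library. The difference between the classes was 1.67 ± 0.17 (adjusted p = 0.000125), the first onset measured 2.31, the resection step (d22 minus d15) -1.57 and the second onset 1.02, each with an adjusted p of at most 0.0112 in limma. The second onset was smaller than the first (difference -1.29, adjusted p = 0.038). Clca1 also stands in the list of lymphatic endothelial markers. Clca1 was the 1 called between the classes of 5 tested, where 5.21% of all tested entries rose (2 were called without d36 replicate 9). The list, Clca1 included, summed to 99.9 to 139 RPKM at d0, 178 to 285 at d15, 145 to 217 at d22 and 139 to 455 at d36. Its medians were 0.9, -0.18 and 0.05 at the 3 steps. The part of lymphatic cells in the values of Clca1 was not tested.

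Repressors of the circadian clock were among the named risers, and Nr1d2 moved at every step. Nr1d2 (REV-ERB beta) measured 1.37, 2.62, 0.903, 1.27 RPKM (d0), 2.45, 5.06, 8.43, 6.99 (d15), 0.379, 0.406, 0.249, 0.491 (d22) and 3.67, 4.61, 4.5, 2.4 (d36). Every d22 value was at or under 0.491 RPKM, below every d0 value, and d0 replicate 2 reached above 1 library of each tumour state. The difference between the classes was 1.56 ± 0.18 (adjusted p = 0.000416), from 1.35, -2.19 and 1.77 at the 3 steps, each called. Its paralogue Nr1d1 (REV-ERB alpha) measured 13.6, 53.8, 25.1, 47.9 RPKM (d0), 62.7, 169, 120, 86.7 (d15), 3.36, 3.79, 2.57, 3.89 (d22) and 35.9, 26.7, 66.7, 97.3 (d36). Its d22 values were the lowest and its d0 and d36 values overlapped, so it had a large difference between the classes (2.63 ± 0.29, adjusted p = 0.000271) and a pattern p of 0.117. Its first onset was not called (adjusted p = 0.0552). Reads of Nr1d1 and of the overlapping gene Thra on the other strand cannot be told apart where the strand of counting is not given.

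Of the 13 clock genes tested, 6 rose and 1 fell between the classes, where 5.21% of all tested entries rose and 2.56% fell. Only Nr1d2 among the 13 was a pattern gene. The fall was not called without d0 replicate 3 or d22 replicate 6, and 2 fell without d0 replicate 1. The list was known from earlier results to move in these data, so its direction is not independent evidence. Dbp, a clock output factor, differed by 1.21 (adjusted p = 0.0078), Per2 by 0.74 (0.0219), Per3 by 0.64 (0.0123) and Bhlhe40 by 1.68 (0.00828). Arntl (BMAL1), the activator whose transcript runs opposite to these in the clock, fell by 0.69 (adjusted p = 0.0232). Arntl averaged 6.59 ± 1.07 RPKM at d0, 3.75 ± 1.9 at d15, 11.2 ± 1.47 at d22 and 7.18 ± 2.43 at d36, so its d36 mean was not below d0. The median of the 13 genes was 0.83 at the first onset, -0.73 at resection and 0.32 at the second onset, where the medians over all tested entries were -0.02, 0.03 and 0.03. The hour of collection is not given in the sources used here, so tumour state and collection hour cannot be told apart for these genes. Dbp overlaps Sphk2 on the other strand, which leaves its value uncertain in the same way.

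Ankrd37 and Bnip3, genes that low oxygen induces, were also pattern genes. They were the only 2 among 17 tested genes of hypoxia and glycolysis, where 0.433% of all tested entries were rising pattern genes. Ankrd37, an ankyrin-repeat gene on chromosome 8 (45996902 to 46005707, minus strand), measured 3.95, 4.65, 4.81, 4.67 RPKM (d0), 17.4, 5.9, 18.6, 13.5 (d15), 5.02, 8.08, 5.22, 8.09 (d22) and 15.6, 49.4, 12.6, 9.69 (d36). Its d0 values were the most alike, d15 replicate 4 lay inside the d22 range, and d36 replicate 7 stood far above every other library. The difference between the classes was 1.32 ± 0.27 (adjusted p = 0.0101), with 1.32 at each onset and adjusted p-values of 0.0923 and 0.0322. Ankrd37 overlaps Lrp2bp and Ufsp2 on the other strand. Bnip3, a mitochondrial receptor for mitophagy on chromosome 7 (138890836 to 138909519, minus strand), measured 9.99, 9.41, 8.94, 10.5 RPKM (d0), 17.8, 18.8, 14.6, 13.1 (d15), 10.7, 13.1, 11.9, 8.16 (d22) and 29.7, 28.9, 27.4, 18.4 (d36). The highest tumour-free library and the lowest tumour-bearing one both print as 13.1 and overlap below that precision, and every other tumour-bearing library was higher. Bnip3 differed by 0.92 ± 0.11 (adjusted p = 0.000609), and its onsets of 0.66 and 1.17 were not shown to differ (adjusted p = 0.188).

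The promoters of Ankrd37 and Bnip3 are shown because both hold the core of the hypoxia response element, ACGTG. The sequences are the 250 bases before the RefSeq transcript start on GRCm38.p6, both on the minus strand, 5′ to 3′, with ACGTG on either strand in capitals.
Ankrd37, chr8:45999851-46000100: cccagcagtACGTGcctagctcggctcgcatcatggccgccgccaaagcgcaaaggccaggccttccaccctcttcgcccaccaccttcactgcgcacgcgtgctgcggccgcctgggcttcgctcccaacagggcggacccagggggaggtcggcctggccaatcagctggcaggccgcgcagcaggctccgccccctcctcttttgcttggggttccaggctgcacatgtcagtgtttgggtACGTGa
Bnip3, chr7:138909507-138909756: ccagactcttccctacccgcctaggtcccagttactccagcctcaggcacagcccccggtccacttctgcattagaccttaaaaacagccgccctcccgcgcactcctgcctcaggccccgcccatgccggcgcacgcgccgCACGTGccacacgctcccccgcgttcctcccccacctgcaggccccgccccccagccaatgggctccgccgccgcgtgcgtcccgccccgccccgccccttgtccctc
In Ankrd37 the matches begin 241 and 6 bases before the start. In Bnip3 they begin 108 and 107 bases before it, on opposite strands, and together form CACGTG, a palindrome that contains ACGTG on both strands. Over all 32851 mouse promoters of the RefSeq table, 16.6% held ACGTG, against 7 of 29 promoters of the rising pattern genes (24.1%) and 2 of 22 of the falling ones (9.09%). CACGTG, the E-box letters, stood in 6.02% of all, 5 of 29 rising (17.2%) and 0 of 22 falling promoters. Since CACGTG contains ACGTG, these 5 promoters are among the 7 counted above. The STAT letters TTCNNNGAA stood in 7.02%, 3.45% and 9.09%, the AP-1 letters TGANTCA in 6.75%, 0% and 9.09%, and the CRE letters TGACGTCA in 1.55%, 3.45% and 0%, all counted on both strands. The 29 promoters belong to 25 genes and the 22 to 17. The letters describe these windows and do not show a bound site.

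Of 17 tested genes of hypoxia and glycolysis, 10 rose between the classes and 0 fell. All 17 had a positive difference, where 52.5% of all tested entries did. The rises included Slc2a1, the glucose transporter GLUT1, which differed by 0.93 (adjusted p = 0.0199), and Ldha, which makes lactate (0.8, adjusted p = 0.0239). Slc2a1 measured 7.52, 5.15, 8.66, 9.51 RPKM (d0), 8.73, 14.6, 10.7, 10.3 (d15), 9.42, 10.4, 10.4, 6.97 (d22) and 39.8, 31.3, 34, 9.77 (d36). The d15 libraries and d36 replicate 9 overlapped the tumour-free range, and the other 3 d36 libraries stood above it. The list's median was 0.46 at the first onset, -0.23 at resection and 1 at the second onset. Adm, which encodes the vasodilator adrenomedullin, measured 1.09, 1.09, 0.842, 0.744 RPKM (d0), 1.36, 1.59, 2.27, 1.49 (d15), 0.896, 1, 0.545, 0.827 (d22) and 25.4, 21.5, 32.4, 2.09 (d36). It was separated between the classes, yet its onsets of 0.46 and 3.12 differed (2.66, adjusted p = 0.0369). The count of rises was 16 without d36 replicate 9 and 6 without d36 replicate 8.

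The list of STAT3 targets and acute-phase genes had 13 rises and 0 falls among 19 tested genes, where 5.21% of all tested entries rose. All 19 differences were positive. Only Pim3 among the 19 was a pattern gene. The rises numbered 9 without d36 replicate 8 and 17 without d36 replicate 9. Its median was 0.87 at the first onset, -0.49 at resection and 0.79 at the second onset, and 16 of the 19 had both tumour states above both tumour-free states, against 13.8% of all tested entries. This list also was chosen with its behaviour in these data known. Pim3, a serine/threonine kinase gene of the Pim family that cytokines induce, measured 8.89, 11.3, 10.3, 7.06 RPKM (d0), 13.8, 16, 24.4, 18.4 (d15), 8.66, 8.68, 6.01, 8.79 (d22) and 16.1, 37.8, 15.1, 15.6 (d36). The lowest tumour-bearing library stood above the highest tumour-free one, and d36 replicate 7 stood far above the rest. Pim3 differed by 1.03 ± 0.17 (adjusted p = 0.00396), with called steps at resection (-1.07) and at the second onset (1.2) and an adjusted p of 0.0842 at the first onset (0.87). Stat3 itself averaged 3.03 ± 0.156 RPKM at d0, 4.38 ± 0.534 at d15, 3.71 ± 0.515 at d22 and 5.87 ± 1.05 at d36 (difference 0.47, adjusted p = 0.00596). Osmr, the oncostatin M receptor, went 7.19 ± 2.46, 17.7 ± 4.64, 11.7 ± 1.03 and 15.7 ± 5.49 RPKM (0.76, adjusted p = 0.018). Socs3, the feedback inhibitor of STAT3 signalling, differed by 1.5 and missed the threshold (adjusted p = 0.0557), with d36 at 44.9 ± 65.6 RPKM. Saa3, an acute-phase gene, was at most 0.0403 RPKM in every library of d0, d15 and d22 and measured 2.75, 4.57, 12.9 and 4.66 at d36, so its difference came from d36 alone.

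Serinc3, a membrane protein gene of the serine incorporator family, was the most abundant of the named pattern genes. It measured 158, 214, 188, 143 RPKM (d0), 399, 418, 381, 260 (d15), 178, 233, 198, 189 (d22) and 287, 625, 271, 389 (d36). No tumour-bearing value reached down into the tumour-free range, and d36 replicate 9 was not low here. The difference between the classes was 0.97 ± 0.16 (adjusted p = 0.00347), and each of the 3 steps was called (1.04, -0.85 and 0.9, adjusted p = 0.0332, 0.049 and 0.0159). The transcript 0610039K10Rik, which starts inside Serinc3 on the other strand of chromosome 2 (163644850 to 163645801), differed by 0.68 (adjusted p = 0.00861). Without a stated strand, the reads of these overlapping genes cannot be told apart.

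Pmaip1 (NOXA), a BH3-only inducer of apoptosis, measured 2.72, 2.36, 2.37, 2.86 RPKM (d0), 4.6, 6.04, 5.67, 4.29 (d15), 3.14, 2.12, 4.29, 3.38 (d22) and 7.71, 8.45, 7.55, 5.54 (d36). Its classes touched without overlap, at 4.29 RPKM in d15 replicate 6 and in d22 replicate 5 to the printed precision. Pmaip1 differed by 0.88 ± 0.11 (adjusted p = 0.000609), with both onsets called (0.77 and 0.99). Lgmn, the lysosomal protease legumain, measured 71, 52.2, 50.3, 69.6 RPKM (d0), 79.5, 90.1, 83.3, 97.4 (d15), 53.4, 50.6, 76.3, 63.7 (d22) and 135, 110, 92.3, 80.4 (d36) and differed by 0.64 ± 0.12 (adjusted p = 0.00596). The lowest tumour-bearing library of Lgmn (79.5 RPKM) stood just above the highest tumour-free one (76.3). Tmem173 (STING), the adaptor of cytosolic DNA sensing, measured 4.7, 3.33, 2.93, 3.49 RPKM (d0), 8.36, 7.95, 8.3, 7.54 (d15), 6.59, 3.86, 5.36, 3.34 (d22) and 17.3, 18, 19.2, 5.51 (d36). Replicates 1, 7 and 8 of d36 stood far above d15, and replicate 9 fell inside the d22 range (difference 1.18 ± 0.2, adjusted p = 0.00384). Lyz2, the lysozyme of myeloid cells and of alveolar epithelium, differed by 0.94 (adjusted p = 0.0385), and its call held in 5 of 16 fits that left out 1 library. B930095M22Rik differed by 0.7 (adjusted p = 0.0322) and held in 7 of 16.

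Spry1 (Sprouty 1), which damps receptor tyrosine kinase signalling, measured 8.24, 5.58, 5.4, 7.82 RPKM (d0), 8.94, 11.9, 15.3, 12.7 (d15), 4.8, 5.44, 4.06, 4.63 (d22) and 8.71, 20.5, 11.2, 5.76 (d36). Its d36 replicate 9 lay inside the d0 range. The gene was called at resection (-1.19) and at the second onset (1), and the class difference was 0.88 ± 0.18 (adjusted p = 0.0102). Bambi, a decoy receptor that damps TGF-beta signalling, measured 5.25, 5.33, 5.53, 3.82 RPKM (d0), 7.96, 7.85, 9.53, 8.44 (d15), 4.81, 7.31, 3.95, 6.71 (d22) and 8.74, 10.8, 7.72, 6.55 (d36), a difference of 0.59 ± 0.12 (adjusted p = 0.0095). The highest d22 library of Bambi exceeded d36 replicate 9, so the classes overlapped for this gene. Gm13889 differed by 0.84 ± 0.15 (adjusted p = 0.00452), with a first onset of 1.11 that was called and a second of 0.57 that was not (adjusted p = 0.0839). Of the 18 tested genes of TGF-beta and BMP signalling, 0 rose and 0 fell between the classes in limma, with a median of 0.1. At an unadjusted p of 0.05, 5 of them were higher and 2 lower, where 24.7% of all tested entries passed that threshold, and 4 rose and 2 fell without d36 replicate 9.

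**Figure D2:**
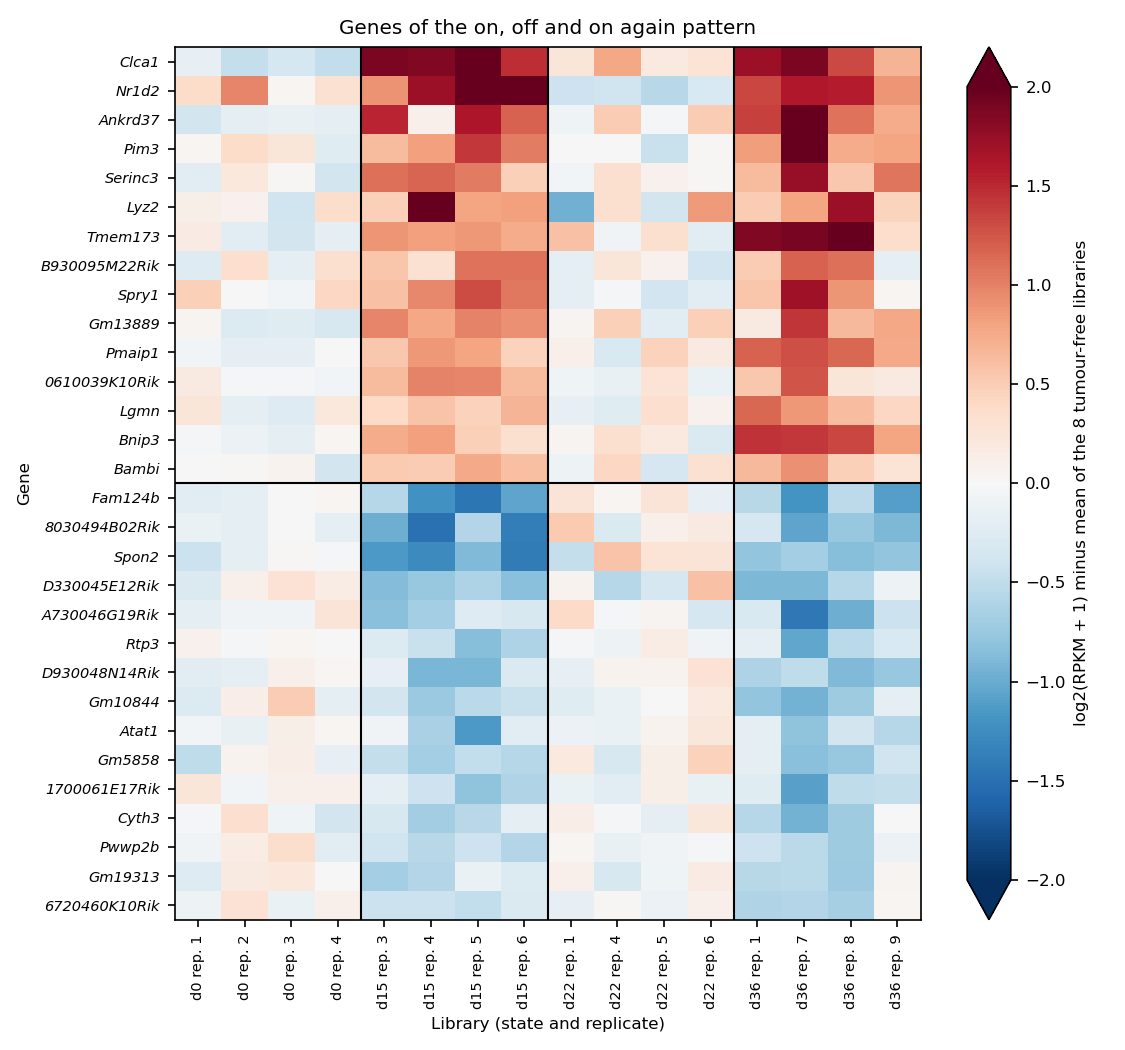
Difference of each library from the mean of the 8 tumour-free libraries, log2(RPKM + 1), for the 15 rising (above the line) and 15 falling named pattern genes, with libraries grouped by state and the colour scale ending at 2 on either side. The d15 and d36 blocks share a colour within each set, and the last column, d36 replicate 9, is the palest of its block for Tmem173 and Spry1 but not for Serinc3 or Fam124b.

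The falls were smaller in size, with 2 of the 366 at least 2-fold. Fam124b, on chromosome 1 (80198706 to 80218473, minus strand), measured 13.8, 14.4, 16.3, 16.8 RPKM (d0), 10.7, 6.54, 5.38, 7.35 (d15), 19.7, 16.9, 19.8, 14.5 (d22) and 10.9, 6.56, 11.1, 7.14 (d36). Every tumour-bearing library lay below every tumour-free one, and d36 replicate 9 was among the lowest of its state. Fam124b differed by -0.96 ± 0.13 (adjusted p = 0.00104), and each step was called at -0.98, 1.17 and -0.94. 8030494B02Rik measured 5.14, 4.83, 5.71, 4.84 RPKM (d0), 2.42, 1.39, 3.47, 1.58 (d15), 8.63, 4.48, 6.19, 6.62 (d22) and 4.28, 2.22, 2.97, 2.59 (d36), again with no overlap (difference -0.93 ± 0.14, adjusted p = 0.00226). Spon2, an extracellular matrix protein of the spondin family, measured 1.15, 1.52, 1.94, 1.83 RPKM (d0), 0.303, 0.195, 0.563, 0.0909 (d15), 1.08, 3.3, 2.5, 2.45 (d22) and 0.669, 0.808, 0.6, 0.669 (d36). Its d15 libraries were the lowest, its d36 libraries lay close together, and none reached a tumour-free value (difference -0.98 ± 0.13, adjusted p = 0.000806). The steps of Spon2 were -1.02, 1.34 and -0.94, each called.

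Rtp3 (receptor transporter protein 3), on chromosome 9 from 110984935 to 110990583, measured 23.7, 21.7, 22.8, 22.1 RPKM (d0), 18.3, 16, 11.9, 14.1 (d15), 21.5, 20.6, 24.7, 21.1 (d22) and 19.3, 10.3, 15, 17.8 (d36). The classes did not overlap, and Rtp3 differed by -0.53 ± 0.11 (adjusted p = 0.0109). The antisense transcript 1700061E17Rik, inside Rtp3 on the other strand, differed by -0.54 (adjusted p = 0.012), and the pair cannot be counted as independent. Cyth3 (cytohesin 3), an exchange factor for ARF GTPases, differed by -0.5 (adjusted p = 0.031), and Atat1, which acetylates alpha-tubulin, by -0.5 (0.0328). Cyth3 kept its call in 8 of 16 fits that left out 1 library, Atat1 in 10 and Gm19313 in 4. The other falling pattern genes that the rule named (D330045E12Rik, A730046G19Rik, D930048N14Rik, Gm10844, Gm5858, Pwwp2b and 6720460K10Rik) ran from -0.7 to -0.43. Of the 30 named pattern genes, 25 kept their class call whichever library was left out. Fewer, 15, also kept their status as pattern genes in every such fit. Ankrd37 kept that status in 11 of the 16 fits, Spry1 in 12, Lyz2 in 5, and Cyth3 and Gm19313 in 4 each.

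**Figure D3:**
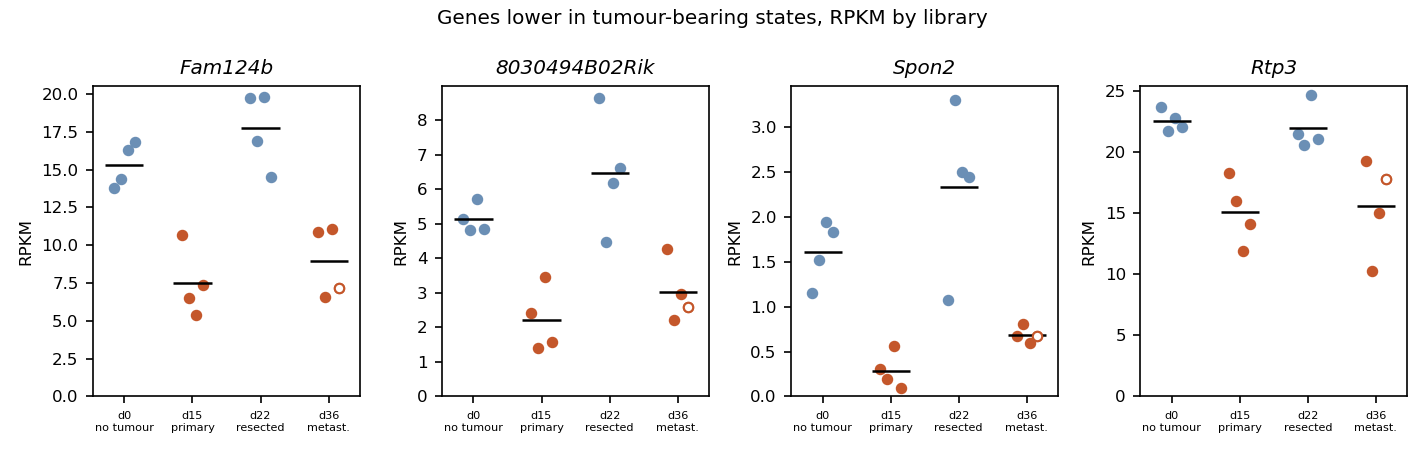
RPKM of 4 genes that were lower in the tumour-bearing class, for each of the 16 libraries by state (blue, tumour-free; orange, tumour-bearing; open circle, d36 replicate 9; line, mean of 4 libraries; each vertical axis starts at 0). In all 4 genes the tumour-bearing points lie below the tumour-free points, as for Rtp3 at 10.3 to 19.3 against 20.6 to 24.7 RPKM.

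The largest fall among called genes with a symbol and a state mean of at least 2 RPKM did not follow the pattern. Myl7, an atrial myosin light chain, measured 4.53, 10.7, 21.8, 4.93 RPKM (d0), 1.06, 1.84, 1.04, 1.15 (d15), 1.51, 4.1, 4.55, 1.1 (d22) and 3.14, 0.372, 0.595, 5.16 (d36) and differed by -1.23 ± 0.34 (adjusted p = 0.038). Its highest values were at d0, the classes overlapped, and the call held in 6 of 16 fits that left out 1 library. Myl7 is itself on the list of cardiomyocyte markers. The other 6 listed markers summed to 8.03 to 22.2 RPKM at d0, 6.45 to 10.5 at d15, 5.28 to 9.71 at d22 and 4.02 to 10.6 at d36, ranges that overlap, and of the 5 that were tested 0 were called between the classes in limma (1 was lower at an unadjusted p of 0.05, Sln, at -0.69 and an adjusted p of 0.0607). Their part in the result was not tested. Mmp15, a membrane-type matrix metalloproteinase, measured 13.7, 15.4, 16.1, 15.5 RPKM (d0), 9.9, 5.61, 5.19, 11.9 (d15), 12.2, 12, 12.1, 10 (d22) and 6.85, 1.95, 8.22, 9.92 (d36) (difference -0.87 ± 0.22, adjusted p = 0.0242). Its d15 range reached the tumour-free range, and the adjusted p was 0.052 without d15 replicate 4 and 0.0517 without d0 replicate 3.

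Of the 5 largest rises between the classes, among called genes with a symbol and a state mean of at least 2 RPKM, 4 had their highest values at d36. The fifth was Nr1d1 (2.63), whose mean was highest at d15. Rhox5, a homeobox gene that is silent in most adult somatic tissue and expressed in tumour lines, measured 0.196, 0.113, 0, 0.103 RPKM (d0), 0.0716, 0.421, 0.159, 0 (d15), 0.321, 0, 0.721, 0.63 (d22) and 148, 97.8, 91.6, 11.1 (d36). Lgals1 (galectin 1) measured 3.4, 2.42, 2.5, 3.39 RPKM (d0), 1.86, 3.83, 3.23, 2.94 (d15), 5.38, 5.82, 3.79, 4.6 (d22) and 539, 515, 363, 31.1 (d36). Neither exceeded its tumour-free range at d15, and their onsets differed (5.45 and 5.36, adjusted p = 0.00136 and 0.00438). The chemokine Ccl2, which draws monocytes, measured 0.403, 0.0465, 0.044, 0 RPKM (d0), 0.0531, 0.885, 0.769, 0.191 (d15), 5.45, 0.117, 0.404, 0.675 (d22) and 180, 230, 100, 5.87 (d36), and Cxcl1, which draws neutrophils, measured 0.604, 0.765, 0.427, 0.1 RPKM (d0), 1.2, 0.999, 1.91, 1.31 (d15), 6.9, 2.27, 1.16, 1.87 (d22) and 236, 406, 121, 6.79 (d36). For both, d36 replicate 9 lay within or close to the highest d22 library while the other 3 d36 libraries were at 100 RPKM or more. The differences between the classes were 2.79 for Rhox5, 2.77 for Ccl2, 2.73 for Cxcl1 and 2.68 for Lgals1.

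Markers of other cells moved with d36. Beside the counts of calls, 5.21% of all tested entries rose between the classes and 2.56% fell. Of the 8 tested Lewis lung carcinoma-like markers, 8 rose between the classes, with a median of 0.14 at the first onset, 0.01 at resection and 4.02 at the second onset. Their summed level (11 markers in the table) was 44.7 to 49.3 RPKM at d0, 48 to 59.9 at d15, 42.5 to 54.8 at d22 and 1080 to 1640 in 3 d36 libraries, with d36 replicate 9 at 135. Of 8 pan-leukocyte markers tested 6 rose, and their sum over 11 was 60.1 to 72.3, 63.1 to 77.2, 55.3 to 68.6 and 72.6 to 205 RPKM in the same order of states. Of 8 macrophage markers 6 rose, and their sum over 13 was 27.2 to 53.9, 54 to 148, 18.6 to 66.5 and 62.6 to 167. The leukocyte count was 3 without d0 replicate 3, d15 replicate 4, d22 replicate 1, d22 replicate 5 or d36 replicate 7, and the macrophage count was 3 without d0 replicate 3, d22 replicate 1 or d36 replicate 8. Macrophage markers Marco and C1qb were at most 0.275 RPKM at d0, d15 and d22. Neutrophil markers summed to 53 and 30.4 RPKM in d36 replicates 7 and 8 and to at most 3.07 elsewhere. Fibroblast and mural markers summed to 11.6 to 17.4, 9.8 to 21.6, 15.5 to 34.1 and 13.5 to 59.9 RPKM by state. Platelet markers summed to 3.22 to 4.61, 5.53 to 7.01, 4.64 to 5.64 and 6.51 to 18.6 RPKM. T, B and NK cell markers summed to 217 to 1450 RPKM at d36, inside their wide d0 range of 136 to 3810. Only 3 of them were tested, and 0 were called between the classes. At the second onset their median was 1.5 and 1 was called higher (8.73% of all tested entries were). The mean log2(RPKM + 1) of the 3 was 3.04 to 6.17 at d36 and 3.1 to 4.3 at d0. The part of these cells in any gene or list described here was not tested. In bulk libraries, fewer cells of a type and less RNA per cell cannot be told apart.

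Sums of other-cell markers also differed at d15. The macrophage sum given above was 54 to 148 RPKM at d15 and 27.2 to 53.9 at d0. Of its 8 tested members 0 were called at the first onset, with a median of 0.14. The mean log2(RPKM + 1) of the 8 was 1.47 to 1.93 at d15 and 0.99 to 1.74 at d0, which overlap. Lyz2, also a gene of alveolar epithelium, alone averaged 33.3 RPKM at d0 and 72 at d15. Erythroid markers summed to 9.12 to 37.7 RPKM at d15 against 1.29 to 3.71 at d0, 1.83 to 14.7 at d22 and 4.88 to 24 at d36, and Hba-a1, a haemoglobin gene nearly identical to Hba-a2, rose between the classes (1.33, adjusted p = 0.022). Lung epithelial markers summed to 3460, 3350, 1470 and 1290 RPKM at d15 against 814 to 2000 at d0, 1150 to 1640 at d22 and 482 to 1160 at d36. The 2 lower d15 sums lay inside the d0 range. At the first onset 0 of the 13 tested members were called higher and 1 lower (0.608% and 0.573% of all tested entries were). Their median there was nevertheless 0.85. The mean log2(RPKM + 1) of the 13 was 3.78 to 4.62 at d15, above the 3.15 to 3.71 of d0. It was 3.15 to 3.96 at d22 and 3.59 to 4.04 at d36. The members called between the classes were Krt8, Krt18 and the surfactant-processing protease gene Napsa. Krt8 and Krt18 also stand in the carcinoma-like list and were at 44.7 and 71.2 RPKM in d36 replicate 7. The part of these cells in the d15 values was not tested.

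**Figure D4:**
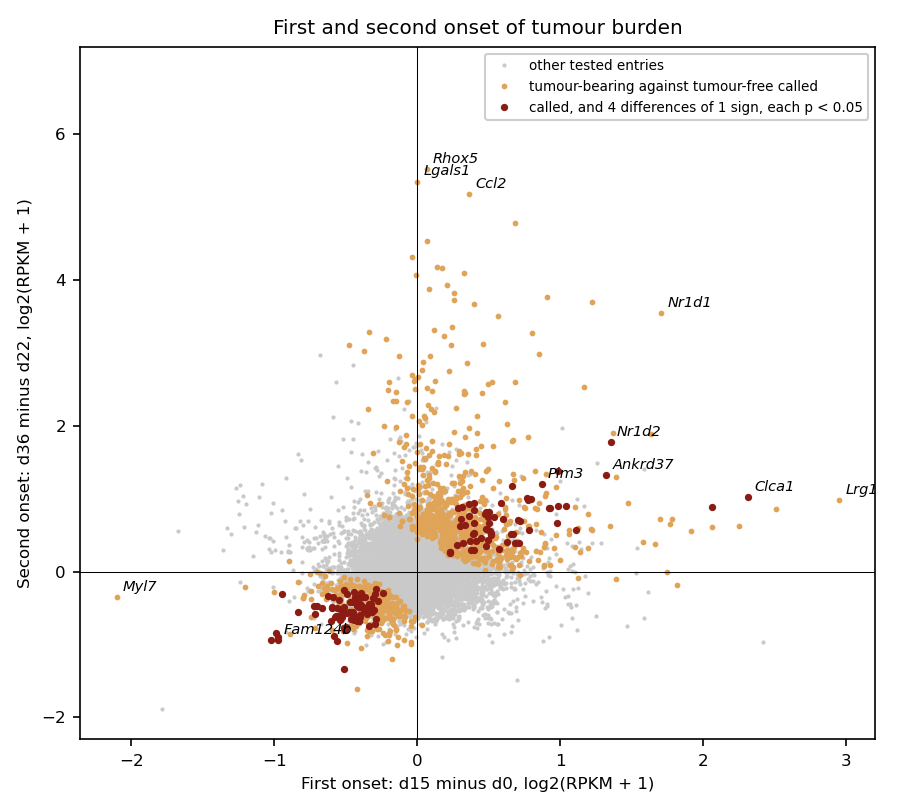
Second onset (d36 minus d22, vertical) against first onset (d15 minus d0, horizontal) on the log2(RPKM + 1) scale, 1 point per tested entry; orange points were called between the classes, and dark red points also had 4 differences of 1 sign at p under 0.05 each. The onsets share no library; Lrg1 lies at 2.95 and 0.98, Clca1 at 2.31 and 1.02, and Rhox5 and Lgals1 lie near 0 on the horizontal axis.

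The onsets share no library and could be compared. At the first onset 87 entries rose (0.608%) and 82 fell (0.573%), and at the second 1249 rose (8.73%) and 439 fell (3.07%). Both onsets called 14 rises, which are 16.1% of the 87 and 1.12% of the 1249, and 7 falls, which are 8.54% of the 82 and 1.59% of the 439. Of the 87 first-onset rises, 60 (69%) had a positive second onset, where 54.5% of all tested entries did, and 0 were called in the opposite direction. Of the 82 first-onset falls, 31 (37.8%) had a negative second onset, where 45.5% of all did, and 16 were called as rises at the second onset. The shared rises with a symbol were Clca1, Dnajb9, H3f3b, Nr1d2, Pmaip1, Serinc3, Sparcl1, Ssr3, Tspan4 and Ttpal, and the shared falls were Fam124b, Spon2 and 8030494B02Rik. Sparcl1, a matricellular protein gene, was called at both onsets without a return between them: it averaged 2.52, 5.03, 8.57 and 14 RPKM at d0, d15, d22 and d36. Dnajb9 and Ssr3, genes of the endoplasmic reticulum, also did not return at d22 (7.09, 10.8, 10.2 and 14.2 RPKM for Dnajb9, and 9.07, 13.3, 26.7 and 36.4 for Ssr3). Tspan4, a tetraspanin gene, went 19.8, 35.9, 12.4 and 23.5 RPKM, with every step called.

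The onsets differed in 695 entries (4.86%), of which 560 were more positive at the second (3.92%) and 135 more negative (0.944%). Among genes called between the classes, 158 of the 745 rises and 8 of the 366 falls differed between onsets. Resection called 286 rises (2%) and 151 falls (1.06%). With RPKM divided by median-of-ratios size factors, higher entries were 44.7% of the resection calls, against 65.4% as deposited. With the length and GC trend removed they were 51.7% of the resection calls, and 53.2% of the calls at the second onset against 74%. This step shares d15 and d22 with the onsets, so its overlap with them is not given. Without d36 replicate 9 the first onset called 251 and 231 entries, the second 2291 and 1480, resection 687 and 331, and 2044 differed. The first onset called 14 to 41 rises and 10 to 48 falls when any 1 of its own 8 libraries was left out, with 162 and 136 without d36 replicate 7 and 50 and 54 falls without d22 replicates 1 and 4. The second onset dropped to 712, 792 and 719 rises without d22 replicate 6 and d36 replicates 7 and 8, and to between 160 and 250 falls without those or d22 replicates 1 and 5. The number that differed was between 306 and 430 without any 1 of the 4 d0 libraries, d15 replicates 5 and 6, d22 replicates 4, 5 and 6, and d36 replicate 8. Resection called 80 to 181 rises without d15 replicates 4 and 6 or any d22 library and 473 without d36 replicate 7, and 41 to 62 falls without d15 replicates 4 and 6 or d22 replicates 1, 5 and 6 and 230 without d36 replicate 7.

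**Figure D5:**
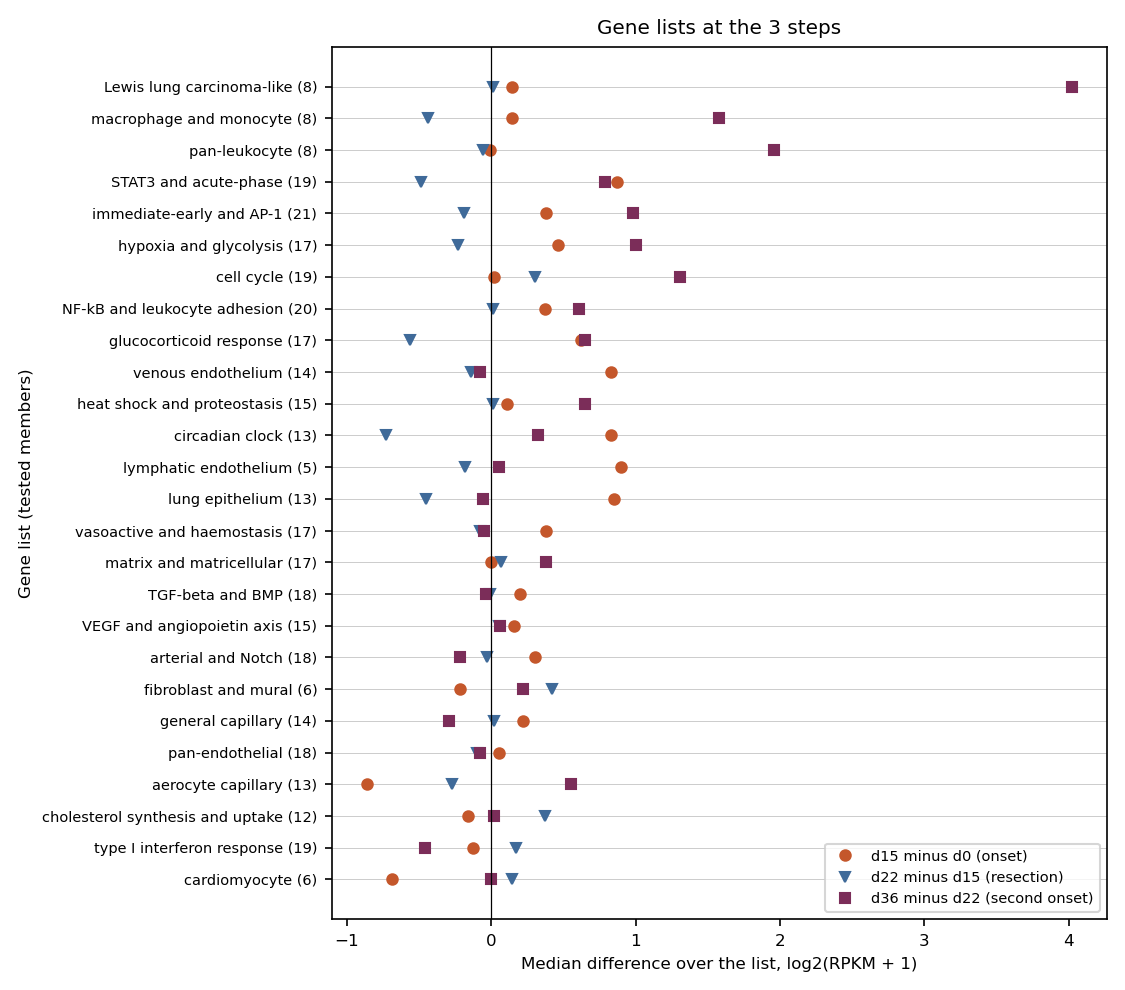
Median difference over the tested members of each gene list at 3 steps (circle, d15 minus d0; triangle, d22 minus d15; square, d36 minus d22), log2(RPKM + 1), ordered by the median difference between the classes, with the number of tested genes in brackets. The STAT3 and acute-phase list reads 0.87, -0.49 and 0.79, and the carcinoma-like list moves at the second onset alone (0.14, 0.01 and 4.02).

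Inflammatory lists moved in part. For the counts of this list and of those that follow, 5.21% of all tested entries rose between the classes and 2.56% fell. Of 20 tested genes of NF-kB and leukocyte adhesion, 8 rose and 0 fell, with medians of 0.37, 0.01 and 0.61 at the 3 steps. Nfkbiz, an inducible regulator of NF-kB, measured 5.08, 4.91, 5.74, 5.25 RPKM (d0), 12, 11.6, 24.4, 15 (d15), 11.9, 13.8, 8.12, 11 (d22) and 56.2, 108, 46.6, 12.6 (d36) and differed by 1.63 ± 0.29 (adjusted p = 0.00553). Its d22 values overlapped d15 and lay above d0, and the resection step was not called (-0.42, adjusted p = 0.632). The adhesion genes Vcam1 (0.58, adjusted p = 0.158), Icam1 (0.55, 0.085) and Sele (0.54, 0.301) did not pass. P-selectin (Selp) did (0.99, adjusted p = 0.028), as did the chemokine receptor Darc (1.25, 0.0124), both genes of venules. The list had 15 rises without d36 replicate 9.

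Of 21 immediate-early and AP-1 genes, 8 rose and 0 fell, with medians of 0.38, -0.19 and 0.98. Atf3 measured 9.35, 10.2, 7.79, 10.8 RPKM (d0), 23.6, 28, 51.2, 29 (d15), 20.9, 21, 13.3, 14 (d22) and 107, 230, 44.1, 16.5 (d36) (difference 1.76 ± 0.36, adjusted p = 0.0109). The d15 values lay above all tumour-free values, and d36 replicate 9 lay inside the d22 range. Of 15 heat-shock genes 5 rose, and Hspa1b, an inducible HSP70 gene, had 2.19 to 3.01 RPKM at d0 and 6.07 or more in every later library, so it did not return at resection. Without d36 replicate 9 the counts were 15 of the 21 and 12 of the 15.

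Of 17 glucocorticoid-response genes, 6 rose and 0 fell (11 rises without d36 replicate 9), with medians of 0.62, -0.56 and 0.65. The rises were the metallothioneins Mt1 (2.46, adjusted p = 0.0022) and Mt2 (2.03, 0.00792), Klf9 (0.42, 0.0129), Errfi1, Cebpd and Gadd45g. Tsc22d3 (GILZ), a leading glucocorticoid target, differed by -0.08 (adjusted p = 0.823), and Sgk1 by -0.17 (0.546). Mt1 measured 1.86, 2.96, 1.31, 1.2 RPKM (d0), 5.95, 5.11, 5.28, 5.35 (d15), 4.36, 6.34, 3.83, 3.35 (d22) and 181, 92.8, 104, 12.2 (d36). It was higher at d15 than at d0, stayed near that level at d22, and reached 92.8 RPKM or more in 3 of the 4 d36 libraries.

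Of 19 tested cell-cycle genes, 5 rose and 0 fell, and the medians were 0.02, 0.3 and 1.31. The d36 libraries in which this list was high also held the carcinoma-like marker sums of 1080 to 1640 RPKM and the higher leukocyte sums given above, whose part in the list was not tested. Top2a, the topoisomerase of dividing cells, was at most 0.288 RPKM at d0 and d15, reached 2.7 in d22 replicate 1, and measured 19.6, 12.1, 15.6 and 2.68 at d36. The count was 17 without d36 replicate 9 and was 2 or 3 without any 1 of d0 replicates 2, 3 and 4, the 4 d15 libraries, d22 replicates 5 and 6, and d36 replicates 1, 7 and 8.

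Of 19 tested genes of the type I interferon response 1 rose (Cxcl10, 0.87, adjusted p = 0.0499) and 0 fell, yet 17 had a negative difference and the median was -0.33. Irf7, the master regulator of this response, averaged 37.6 ± 6.78 RPKM at d0, 31.4 ± 4.8 at d15, 35.4 ± 7.34 at d22 and 21.9 ± 6.42 at d36 (-0.47, adjusted p = 0.0542), and Isg15 44.2 ± 9.18, 34.1 ± 6.22, 37.8 ± 7.91 and 26.3 ± 7.81 (-0.45, adjusted p = 0.0827). Both tumour states lay below both tumour-free states in 11 of the 19, against 16.5% of all tested entries. Without d36 replicate 9, 3 of the list fell. The call of Cxcl10 held in 2 of 16 fits that left out 1 library.

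Endothelial identity lists other than the venous one gave few calls between the classes. Over all tested entries 5.21% rose and 2.56% fell, and 24.7% passed an unadjusted p of 0.05 in limma in either direction. Some genes stand in more than 1 list and count in each. They include Darc and Selp (venous and NF-kB), Ptgs1 (venous and vasoactive), Bhlhe40 (clock and hypoxia) and Cebpd (STAT3 and glucocorticoid). Of 18 pan-endothelial genes 0 rose and 1 fell, the receptor gene Tie1, which measured 438, 410, 457, 472 RPKM (d0), 368, 362, 349, 464 (d15), 377, 390, 392, 431 (d22) and 299, 235, 286, 284 (d36). The falls of the list numbered 2 without d36 replicate 9. The d36 libraries of Tie1 were below all the others, and d15 overlapped the tumour-free range (difference -0.37 ± 0.08, adjusted p = 0.0143). No call was made in limma among 14 general capillary genes (2 higher and 1 lower at an unadjusted p of 0.05) and 18 arterial and Notch genes (1 and 2). In the fit without d36 replicate 9, 1 general capillary gene rose and 1 fell, and without d36 replicates 1 and 9 together 2 arterial genes rose. The axis of VEGF and angiopoietin receptors and ligands had 0 rises and 1 fall, again Tie1, among 15 genes (4 and 3 unadjusted), with 5 rises and 3 falls without d36 replicate 9. Of 14 venous genes 3 rose (Darc, Selp and Ptgs1) and 0 fell (6 and 0 unadjusted). The venous rises numbered 8 without d36 replicate 9. They numbered 1 without d0 replicate 3, d15 replicate 5, d22 replicate 5, d22 replicate 6 or d36 replicate 1.

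The medians of the aerocyte capillary list had opposite signs at the onsets. Aerocytes are the thin capillary cells of gas exchange. Of 13 tested genes, 0 rose and 0 fell between the classes in limma (0 higher and 2 lower at an unadjusted p of 0.05, median -0.09), while the medians at the steps were -0.86, -0.27 and 0.55 and 7 of the 13 had onsets that differed. The count of falls was 2 of the 13 without d36 replicate 9. The summed level of the list was 2630 RPKM in that library and 1390 to 1990 in the other 3 d36 libraries. Car4, a membrane carbonic anhydrase, averaged 71.3 ± 12.4 RPKM at d0, 36.4 ± 5.47 at d15, 25.6 ± 6.42 at d22 and 51 ± 29.1 at d36, and Ednrb, the endothelin receptor B, 87.5 ± 27.6, 40 ± 11.4, 33.2 ± 10.5 and 71.8 ± 34.5. The means of both genes were lowest at d22. Of the genes of the thromboxane and prostaglandin axis, Tbxa2r, the thromboxane receptor, measured 23.9, 20.5, 17.8, 15.5 RPKM (d0), 8.65, 6.27, 6.95, 9.46 (d15), 10, 9.24, 7.08, 9.01 (d22) and 4.93, 5.95, 8.62, 11.6 (d36) (difference -0.71 ± 0.14, adjusted p = 0.00944). Its d0 libraries stood above all others and d22 stayed low, so the difference between the classes came with no return after resection.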

How the data were processed

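RNA was from flow-sorted lung endothelial cells, with 10 ng amplified by SMARTer Ultra Low chemistry, per the labels' protocols; the antibodies of the gate are not given in the sources used here. The submitters' processing notes name STAR, DESeq2 and mm10, with no versions. The authors deposited 1 table of RPKM values for 17715 entries, per the file headers. Its log2 fold change and adjusted p-value columns, also deposited by the authors, name no comparison and were not used. Strand use and counting rules are not given in the sources used here.

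Entries had to reach 1 RPKM in 4 or more of the 16 libraries. Values were log2(RPKM + 1), and limma 3.58.1 (R 4.3.3; empirical Bayes with trend) was fitted to 4 state means over 16 libraries, with contrasts for the classes, steps and onsets and Benjamini-Hochberg adjustment over all tested entries. The scripts were tested on simulated data. Members and gene lists were chosen with earlier results of these data known, and the clock and glucocorticoid lists after they had been seen. Named by rule were Lrg1 and the 15 rising and 15 falling pattern genes with the largest smallest-difference. These pattern genes had a symbol and a state mean of at least 2 RPKM. Also named were the 5 largest rises and falls called between the classes under the same conditions, and up to 3 called genes per list by p. Other genes of a list serve as examples chosen after their values were seen. Alternatives covered the pseudocount, filter, scaling, replicate block, array weights, class model, length and GC, and left-out libraries. Same-numbered libraries of different states did not deviate together (r -0.11 to 0.22 over 9 pairs), so the numbers were not used as pairs. Promoters are from RefSeq (GRCm38.p6), and gene positions from GENCODE.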

Additional observations from a re-analysis of the deposited data

Results flagged for a closer look

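Among the 80 named genes, 320 groups of 4 libraries were tested for a single distant library on the log2(RPKM + 1) scale (Dixon's ratio above its 95% critical value), and 29 were found; chance gives about 1 in 20 groups. The distant library was d36 replicate 9 for Tmem173 (5.51 RPKM, the others 17.3 to 19.2), Bnip3 (18.4), Lgals1 (31.1), Ccl7 (2.62), Adm (2.09) and Ptgs2 (3.01), all low, and for 6720460K10Rik (3.23), which was high. Pim3 was high in d36 replicate 7 (37.8) and low in d22 replicate 5 (6.01). In d22, replicate 4 was high for Clca1 (5.62), Klf9 (28.6) and Ptgs1 (85.5), replicate 5 for 0610039K10Rik (7.89) and replicate 6 for Hba-a2 (1.93), while replicate 6 was low for Mmp15 (10). In d15, replicate 5 was high for Ier3 (842), Cd68 (3.08), Marco (0.0977) and C1qb (0.151), replicate 3 for Sparcl1 (6.2) and Saa3 (0.0403), and replicate 4 for Myl7 (1.84). In d0, replicate 1 was high for 0610039K10Rik (7.3) and Ccl2 (0.403), replicate 2 for Saa3 (0.0353) and Fn1 (0.0954), and replicate 4 for Ccl7 (0.0599) and C1qb (0.234), while replicate 4 was low for Bambi (3.82). The values under 0.5 RPKM lie near the lower end of what the table resolves.

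The onsets differed for 21 named genes (second minus first on the log2(RPKM + 1) scale, limma interaction, adjusted p). The second onset was smaller for Clca1 (-1.29, adjusted p = 0.038) and Hspa1b (-1.28, 0.0308). It was larger for the carcinoma-like markers Rhox5 (5.45, 0.00136), Lgals1 (5.36, 0.00438) and S100a6 (3.77, 0.0126), and for the chemokines Ccl2 (4.82, 0.0241), Cxcl1 (4.1, 0.0476), Cxcl2 (3.46, 0.0128) and Ccl7 (4.04, 0.017). It was also larger for the leukocyte and macrophage markers Itgb2 (3.63, 0.00455), Tyrobp (2.66, 0.0251), Cd52 (1.91, 0.0114), C1qb (2.52, 0.0264), Marco (2.4, 0.00438) and Cd68 (1.61, 0.0133). The remaining larger second onsets were those of Mt2 (3.28, 0.0275), Saa3 (2.67, 0.00136), Adm (2.66, 0.0369), Top2a (2.44, 0.0212), Fn1 (1.97, 0.0075) and Pcna (0.53, 0.048).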

How the results depend on the processing

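No named gene changed sign between the classes under an alternative run. The medians of 3 lists did: arterial and Notch (-0.01, opposite in 11 of 24 alternatives, -0.07 to 0.09), fibroblast and mural (-0.02, in 6, -0.11 to 0.32) and aerocyte (-0.09, in 1, -0.4 to 0.01). Moves beyond the spread of the list were 1.74 for pan-leukocyte (0.96) with a pseudocount of 0.1, 0.74 for heat shock (0.37) and -0.4 for aerocyte with the block, and 0.54 for clock (0.33) and 1.43 for pan-leukocyte without d36 replicates 1 and 9. Over all alternatives, 221 of the single-gene values missed the threshold that the gene had passed. With the replicate number as a block, 101 entries were lower between the classes (higher 688), 241 onsets differed, 23 fell at the first onset, resection called 477 and 258, the second onset 485 and 17, and 16 pattern genes fell; the numbers do not pair the libraries. Median-of-ratios scaling (factors 0.946 to 1.062) gave 278 falls at resection. Array weights per state gave 259 and 265 at the first onset, 721 and 351 at resection and 251 falls at the second. The model of 2 classes called 57 and 53. Without d36 replicates 1 and 9, the classes differed in 1674 and 1357 entries, the strict pattern in 1 fall, onsets in 1859, the steps in 266 and 258, 749 and 352, and 1975 and 1474, with 147 and 216 pattern genes.

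Alternatives chosen after seeing the data: with the entries that have length and GC (70.7% of those tested, so fewer were tested), 143 were lower between the classes, resection called 153 and 97, 135 fell at the second onset, and pattern genes numbered 40 and 23. With the length and GC trend removed over these, 360 were higher between the classes and higher entries were 50.3% of the calls; resection called 60 and 56, the second onset 553 rises, and pattern genes numbered 24 and 51. The cause was not tested. The planned length and GC correction over all entries was not run, since fewer than 80% have both. Leaving out 1 library gave 384 to 1787 higher and 153 to 1269 lower, 0 to 0 strict pattern genes, 306 to 2044 differing onsets, 14 to 251 and 10 to 231 at the first onset, 80 to 687 and 41 to 331 at resection, 712 to 2291 and 160 to 1480 at the second, and 43 to 129 and 45 to 175 pattern genes. No count test was run, since whole reads could not be recovered. The low values limit genes under 1 RPKM, where the pseudocount shrinks differences.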

Other observations

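Some lists of the vessel wall are not described above. Over all tested entries, 5.21% rose between the classes and 2.56% fell. Of 17 matrix and matricellular genes, 4 rose between the classes and 0 fell (7 rises without d36 replicate 9): Sparcl1 (0.7, adjusted p = 0.0047), Lgals1 (2.68, 0.00312), fibronectin Fn1 (1.02, 0.00406) and the anti-angiogenic matricellular gene Thbs1 (0.46, 0.0263). Collagen IV genes of the basement membrane gave 0.04 (Col4a1, adjusted p = 0.923) and 0.17 (Col4a2, 0.799). Of 17 vasoactive and haemostasis genes, 3 rose and 1 fell (2 falls without d36 replicate 9). The rises numbered 7 without d36 replicate 9, 1 without d0 replicate 4, d22 replicate 1, d22 replicate 6 or d36 replicate 8, and 0 without d0 replicate 2, d0 replicate 3, d15 replicate 4, d15 replicate 5, d22 replicate 5, d36 replicate 1 or d36 replicate 7. The rises included both cyclooxygenase genes, Ptgs1 (0.47, adjusted p = 0.0319; called in 7 of 16 fits that left out 1 library) and Ptgs2 (1.12, 0.0461; 3 of 16). Endothelin 1 (Edn1) printed an adjusted p of 0.05 and a difference of 0.32. Of 12 cholesterol genes, 0 rose and 0 fell in limma (0 higher and 3 lower at an unadjusted p of 0.05), and Itgb3, the integrin chain of platelets and of activated endothelium, differed by 0.55 (adjusted p = 0.0163).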
